A study of Mus musculus with 2 samples.

Results

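Glucocorticoids act through a chain of genes that runs from hormone activation to target transcription, and 8 genes of that chain were followed in the mouse chondrocyte line ATDC5, which lays down cartilage-like nodules when it differentiates. The genes were Hsd11b1, Nr3c1, Fkbp5, Tsc22d3, Dusp1, Sgk1, Klf9 and Zbtb16, out of 20657 genes that had a named probe on the array. They were chosen by name, with earlier results of these data known. They were covered by 9 probes, printed as 18 spots, and all 8 genes were well above background on both arrays, so none was lost to a filter on dim signals. The A-CEBP group was 1 stable line with a doxycycline-inducible A-CEBP transgene, whose product is a dominant-negative partner that stops C/EBP factors from binding DNA. The GFP group was 1 stable line with inducible GFP. Both lines received 2 µg/mL doxycycline for 2 days and then ITS (insulin, transferrin and selenite) for 3 weeks. Each group held 1 sample on 1 array, both on 1 slide, so the variation among cultures is unknown and nothing was tested between the lines. The labels do not say whether a line is 1 clone, and the sources used here do not give the glucocorticoid content of the medium.

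In tissues, corticosterone and its inert form are interconverted by 2 enzymes. The enzyme encoded by Hsd11b1 makes the active hormone inside the cell, and the one encoded by Hsd11b2 removes it. The hormone binds the glucocorticoid receptor, the product of Nr3c1, which moves to the nucleus and switches on genes through short paired motifs in DNA, while holding back many inflammatory genes. In the growth plate glucocorticoids are known to slow chondrocyte proliferation. C/EBP factors are known from rat and human cells to bind and activate the Hsd11b1 promoter.

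Promoter windows were read from RefSeq (GRCm38.p6), each running from 250 bases before to 50 bases after a transcript start. Windows of 6 of the 8 genes, 13 in all, were used. Zbtb16 had no window in the set read, and windows of Nr3c1 are not reported here. The 2 printed here are that of the gene with the largest difference and, among the 13, the one with a complete glucocorticoid response element. Capitals mark every match to the C/EBP motif TTNNGNAA, to the glucocorticoid receptor motif AGAACA, or to the full response element, in which AGAACA is followed after any 3 bases by TGTTCT. Both strands were searched. The Hsd11b1 window is chr1:193242311-193242610, minus strand, and the Sgk1 window is chr10:21993640-21993939, plus strand.
Hsd11b1: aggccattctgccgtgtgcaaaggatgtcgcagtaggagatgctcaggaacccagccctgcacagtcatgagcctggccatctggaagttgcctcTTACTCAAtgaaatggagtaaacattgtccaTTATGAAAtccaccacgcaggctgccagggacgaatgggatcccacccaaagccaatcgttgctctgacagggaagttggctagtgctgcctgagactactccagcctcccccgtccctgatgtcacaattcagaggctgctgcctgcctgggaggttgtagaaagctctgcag
Sgk1: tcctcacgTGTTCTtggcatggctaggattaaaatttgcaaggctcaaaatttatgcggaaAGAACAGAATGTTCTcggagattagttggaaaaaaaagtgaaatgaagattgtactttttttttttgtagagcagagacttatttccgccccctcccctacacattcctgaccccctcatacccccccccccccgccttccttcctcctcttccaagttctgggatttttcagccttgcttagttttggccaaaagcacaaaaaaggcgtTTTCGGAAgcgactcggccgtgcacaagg
The Hsd11b1 window held 2 C/EBP motifs, TTACTCAA and TTATGAAA, which began 155 and 124 bases before the start, and no receptor motif. The C/EBP motif is common, with a match in 40.7% of 32851 windows of this length. The Sgk1 window held the full element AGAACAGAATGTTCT, which began 189 bases before the start and whose arms are themselves receptor motifs. It also held 1 separate receptor motif, TGTTCT, beginning 242 bases before the start, and 1 C/EBP motif after the start. The full element was in 3 of all 32851 windows (0.00913%) and the receptor motif in 19.0% of them. The windows of Dusp1, Fkbp5 and Klf9 held none of the 3 motifs, and 1 of the 3 windows of Tsc22d3 held a receptor motif. The other 5 windows of Sgk1 held no full element. A match is a run of letters and was not tested for binding.

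A level below is the log2 processed signal minus the 75th percentile of that array, so 0 marks that percentile, which was 906 intensity units for A-CEBP and 872 for GFP. A difference is A-CEBP minus GFP on that log2 scale. The arrays had 59305 spots that were no controls, and 58.0% of these for A-CEBP and 54.6% for GFP stood well above background. Over the 13860 genes measured on both arrays the median difference was 0.05 and the SD over genes 0.42. Scaling on spike-in spots moved that median to 0.24 and every difference up by the same step. Signs, fold sizes and shares below are counted from 0, without subtracting the median of all genes. In A-CEBP, 1.70% of the measured genes were lower by 2-fold or more, 1.26% were higher by that size, and 2.96% were one or the other. Of these, 42.4% were higher, or 64.0% with spike-in scaling and 35.8% with normexp background. The number of arrays limits the precision. From the errors the scanner software reports, a difference had a median error of 0.20, and repeat spots of the same probe had a root mean square SD of 0.12 over 287 probes. Both cover measurement only.

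The activating enzyme was lower in the A-CEBP sample, while the receptor and 5 of the 6 response genes stayed within 1.5-fold. Of the 8 genes, 1 was at least 2-fold lower, Hsd11b1, and 1 at least 2-fold higher, Zbtb16, against 1.70% and 1.26% of all genes. The median of the 8 differences was 0.02, beside 0.05 for all genes. The other 6 genes lay within 1.5-fold, as did 91.5% of all genes. Of the rest, 3.80% of all genes were lower and 4.70% higher by 1.5-fold or more, 8.51% in all. For 4 of the 8 the difference was larger than the scanner error of its probe, as it was for 36.2% of all genes.

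**Figure D1:**
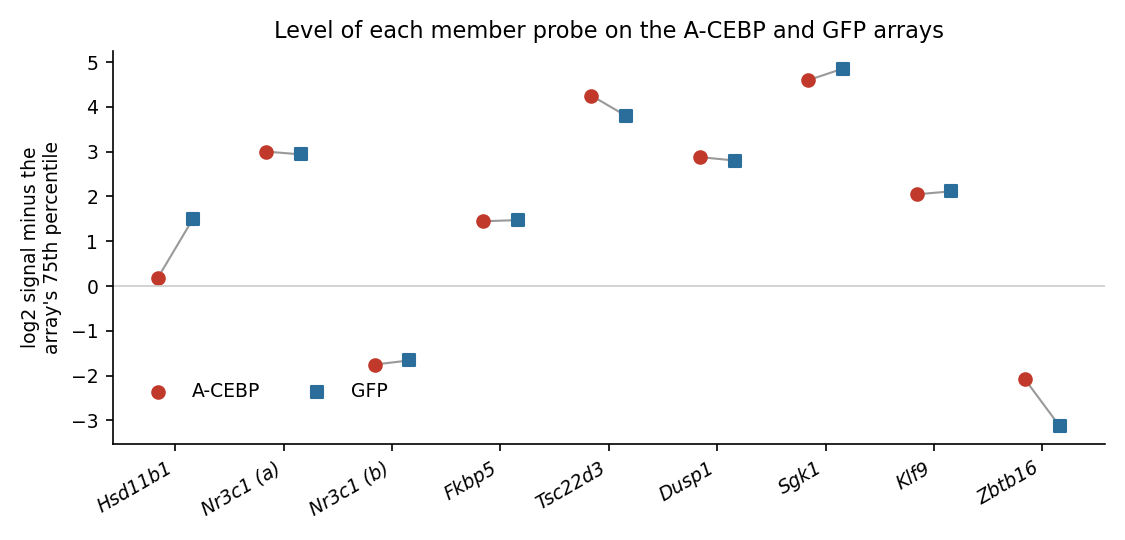
Level of each probe of the 8 genes (vertical axis, log2 signal minus the array's 75th percentile) on the A-CEBP array (circles, left of each pair) and the GFP array (squares, right). Nr3c1 has 2 probes, a and b. Heights cannot be compared between probes. The pairs of Hsd11b1 and Zbtb16 slope in opposite directions: Hsd11b1 is at 0.19 for A-CEBP against 1.49 for GFP, and Zbtb16 at -2.08 for A-CEBP against -3.13 for GFP.

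Hsd11b1 was the one gene of the group printed in several copies, 10 spots of 1 probe spread between rows 40 and 318 of the array. Its signal was lowest at 985, median 1042 and highest 1186 units in A-CEBP, against 2362, 2446 and 2847 units in GFP. The difference of a single spot ran from -1.36 to -1.22. Without 1 spot marked as an outlier, the level was 0.19 ± 0.05 in A-CEBP and 1.49 ± 0.04 in GFP (SD over 9 spots of 1 array each), a difference of -1.30 ± 0.04, or 2.46-fold lower. These spots repeat the measurement of 1 RNA sample per group and are not replicate cultures. Of all measured genes, 1.57% lay at least as far from 0. In cultures measured as a whole, fewer cells of a type and less RNA per cell cannot be told apart.

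**Figure D2:**
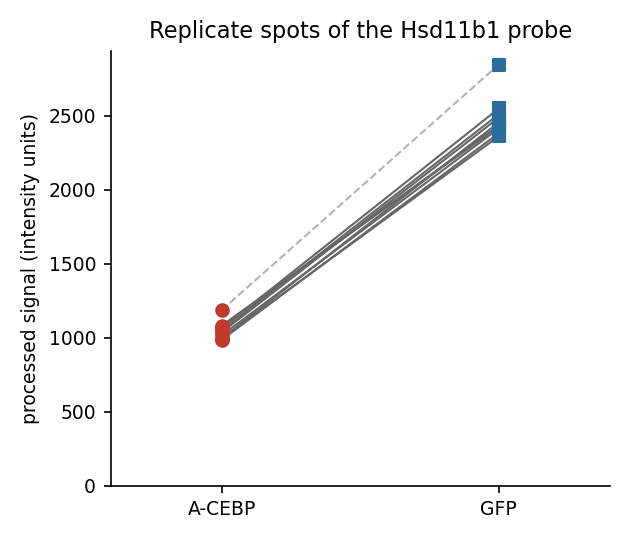
Processed signal (intensity units, linear axis from 0) of the 10 spots of the Hsd11b1 probe on the A-CEBP array (left) and the GFP array (right). Each line joins the same array position and the dashed line is the spot marked as an outlier. All A-CEBP spots lie between 985 and 1186 units and all GFP spots between 2362 and 2847.

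The factors that are known to act on the Hsd11b1 promoter differed among themselves. Cebpb read 13423 units in A-CEBP and 24809 in GFP, a difference of -0.94. Cebpd read 19399 units in A-CEBP and 69012 in GFP, a difference of -1.88. Cebpa was faint, at 255 units in A-CEBP and 209 in GFP, and its difference of 0.23 was about the size of its scanner error of 0.22. With 2 samples the pattern of a gene is 1 difference, and the 3 genes nearest to Hsd11b1 by that measure were Parp9 (-1.30), Ifi204 (-1.30) and Il13ra1 (-1.30).

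Hsd11b1 works in the endoplasmic reticulum with the NADPH made by the enzyme of H6pd, and H6pd was close in both samples, at 1685 units in A-CEBP and 1543 in GFP (difference 0.07). Hsd11b2, the inactivating enzyme, was not well above background on either array. Among 15 genes for steroid enzymes, carriers and exporters, 11 gave a value on each array. Of these, 2 were lower by 2-fold or more and none was higher by that size, beside 1.70% and 1.26% of all genes. The median difference was -0.17. Serpina6, which encodes corticosteroid-binding globulin, the blood carrier of the hormone, read 90.9 units in A-CEBP and 317 in GFP, 3.62-fold lower. That value came from 1 of its 2 probes, as the other was not well above background on either array. The difference of Serpina6 was -1.85, and -1.27 with normexp background, still past 2-fold. Akr1c18, a steroid dehydrogenase known for inactivating progesterone, read 96.7 units in A-CEBP and 200 in GFP, 2.14-fold lower with a scanner error of 0.24. It was under 2-fold with spike-in scaling (-0.91) and with normexp background (-0.71). Of the list's genes for steroid synthesis, Cyp11a1, Cyp11b1 and Hsd3b1 were not well above background on either array, but others were on both. Cyp17a1 read 4082 units in A-CEBP and 3639 in GFP (difference 0.11). Cyp21a1 read 194 units in A-CEBP and 226 in GFP (-0.27), and Star 85.9 in A-CEBP and 92.9 in GFP (-0.17).

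The receptor gene Nr3c1 was nearly equal in the samples. Its brighter probe read 7251 units in A-CEBP and 6687 in GFP, a difference of 0.06 ± 0.20 (scanner error). Its dimmer probe read 269 units in A-CEBP and 276 in GFP, a difference of -0.09 ± 0.21. Both differences were inside the scanner error, and the probes disagreed in sign. Nr3c2, the mineralocorticoid receptor gene, which also binds corticosterone, was dim and level at 57.5 units in A-CEBP and 57.7 in GFP (difference -0.06 ± 0.33).

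All 20 genes for receptor partners, made up of chaperones, coactivators and corepressors together with Nr3c2, were measured on both arrays. All 20 were within 1.5-fold, as were 91.5% of all genes. The 20 differences ran from -0.22 to 0.45, with a median of 0.09 beside 0.05 for all genes. The coactivator gene Ncoa2 was furthest from 0 (0.45). The Mediator subunit gene Med1 differed by 0.36, although its 4 probes ran from -0.22 to 0.36. Hsp90aa1 and Hsp90ab1, which encode the chaperone that keeps the receptor able to bind hormone, differed by 0.10 and 0.16.

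Fkbp5 encodes a co-chaperone that lowers the receptor's affinity for hormone and is itself induced by the receptor, so that it is widely used as a readout of glucocorticoid action. It read 2467 units in A-CEBP and 2420 in GFP, a difference of -0.03 ± 0.20 (scanner error). The sign of that value turned with normexp background, without scaling and with spike-in scaling, and 90.7% of all genes lay at least as far from 0. Fkbp4, a related co-chaperone that favours hormone binding, differed by 0.17. Of the other members of the FKBP family on the list, Fkbp1b differed most, at 0.53, and at 0.86 by its other probe.

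Tsc22d3, also called GILZ, encodes a leucine zipper protein that mediates part of the anti-inflammatory action of glucocorticoids. It read 17240 units in A-CEBP and 12124 in GFP, a difference of 0.45 ± 0.20 (scanner error), or 1.37-fold higher. This was more than the scanner error but under 1.5-fold, and it lay between 0.40 and 0.65 under 9 alternative settings. Its relatives Tsc22d1, Tsc22d2 and Tsc22d4 differed by -0.12, 0.28 and 0.43, and the 3 probes of Tsc22d4 ran from 0.09 to 0.45.

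Dusp1 encodes a phosphatase that inactivates MAP kinases and is induced both by glucocorticoids and by stress. It read 6659 units in A-CEBP and 6085 in GFP, a difference of 0.08 ± 0.20 (scanner error). Among 11 other MAP kinase phosphatase genes, 10 were measured on both arrays. None of these 10 was 2-fold apart, beside 2.96% of all genes. By the brightest probe of each gene, Dusp14 (0.71) and Dusp2 (0.61) differed most among the 10, and the median of the 10 was 0.19. Dusp8 differed by 0.55 by its brighter probe and by 0.88 by its other probe. Dusp5, seen in GFP only, had a lower bound of 1.79-fold, under 2-fold.

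Sgk1 encodes a kinase of ion transport and cell survival, induced by glucocorticoids, mineralocorticoids and serum. It read 21907 units in A-CEBP and 25223 in GFP, a difference of -0.26 ± 0.20 (scanner error), or 1.20-fold lower. It was lower under all 9 alternatives, from -0.33 to -0.06, but within 1.5-fold throughout. Sgk3 differed by 0.01 by its brighter probe and by 0.48 by its other probe, and Sgk2 was not well above background on either array.

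Klf9 encodes a Krüppel-like transcription factor that is directly induced by glucocorticoids. It read 3743 units in A-CEBP and 3776 in GFP, a difference of -0.07 ± 0.20 (scanner error), which turned positive with spike-in scaling. Of the other Krüppel-like factors in the list of family relatives, none was 2-fold apart, beside 2.96% of all genes. Klf11 differed by -0.66 with a scanner error of 0.38, Klf10 by -0.50 and Klf6 by -0.47. Klf15, another glucocorticoid target, differed by -0.26.

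Zbtb16 encodes PLZF, a zinc finger repressor strongly induced by glucocorticoids in several cell types and needed for limb skeletal patterning in mice. It read 214 units in A-CEBP and 99.7 in GFP, a difference of 1.04 ± 0.23 (scanner error), or 2.06-fold higher. Both readings were well above background, but they came from 1 spot on each array and lay far below the 75th percentile. The 2-fold line was inside the scanner error, and the difference was 0.65, under 2-fold, with normexp background. Of all measured genes, 2.61% lay at least as far from 0.

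**Figure D3:**
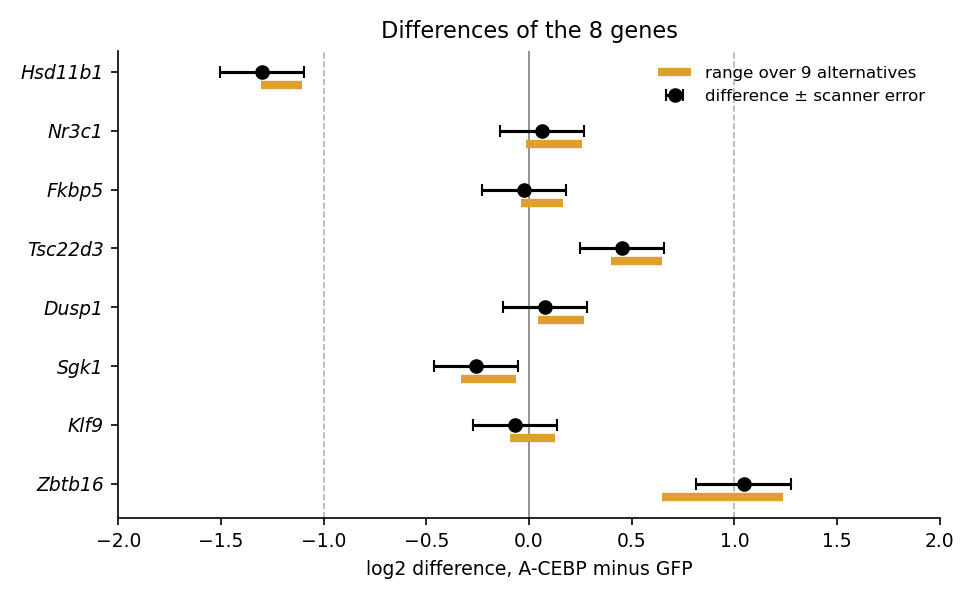
Log2 difference, A-CEBP minus GFP, of each of the 8 genes (black points, by the brighter probe for Nr3c1), with the scanner error as whiskers and, in orange, the lowest to highest value over 9 alternative settings. Dashed lines mark 2-fold. Hsd11b1 lies at -1.30 with an orange bar from -1.30 to -1.11, Zbtb16 at 1.04 with a bar from 0.65 to 1.24, and the points of the other 6 within 1.5-fold, with the bar of Tsc22d3 reaching 0.65.

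**Figure D4:**
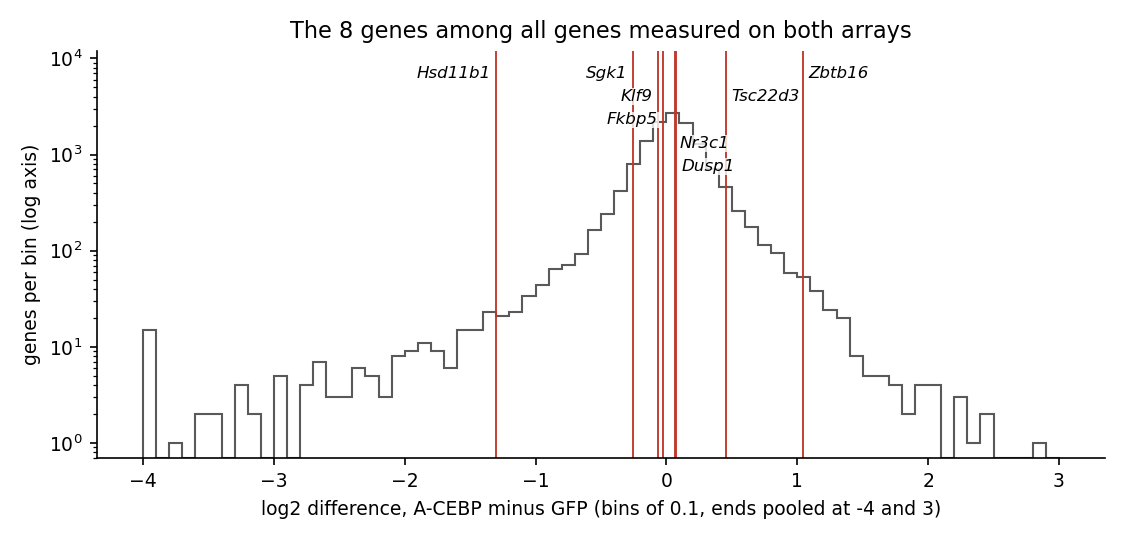
Distribution of the log2 difference, A-CEBP minus GFP, over 13860 genes measured on both arrays (outline, genes per 0.1-wide bin on a log axis), with a red line at each of the 8 genes. Sgk1, Klf9, Fkbp5, Nr3c1, Dusp1 and Tsc22d3 stand in the central part, while Hsd11b1 at -1.30 and Zbtb16 at 1.04 stand on its flanks.

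A wider list of 40 genes known to be induced by glucocorticoids did not move one way. This list too was chosen with earlier results of these data known. Of the 38 with a value on each array, 4 (10.5%) were lower by 2-fold or more and none was higher by that size, beside 1.70% and 1.26% of all genes. Their median was -0.06, with 21 below 0 and 17 above. The 4 lower genes were the siderophore-binding protein gene Lcn2 (-6.96), Cebpd (-1.88), the NF-kB inhibitor gene Nfkbia (-1.46) and the metallothionein gene Mt2 (-1.13). Mt2 was under 2-fold with spike-in scaling (-0.94). These 4 are known to be induced by inflammatory signals as well. That trait was not scored for the other genes of the list, and its part in the differences was not tested.

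Of the other measured genes of the list, 25 were within 1.5-fold. At that size 9 genes of the list were lower, the 4 above included, and 4 were higher. The clock gene Per1, a direct receptor target, read 2257 units in A-CEBP and 2095 in GFP, a difference of 0.05. Mt1, the metallothionein gene regulated much like Mt2, differed by -0.24, and the kinase gene Pdk4 by -0.04. Angptl4, a lipase inhibitor gene, differed by -0.95, Cebpb by -0.94 and the angiotensinogen gene Agt by -0.73. The EGF receptor inhibitor gene Errfi1 differed by -0.71 and the ubiquitin ligase gene Fbxo32 by -0.71 ± 0.21 (scanner error). On the other side, the cell cycle inhibitor genes Cdkn1a and Cdkn1c differed by 0.85 and 0.83, Ddit4, an mTOR inhibitor gene, by 0.76, and Mertk, a receptor kinase gene for the clearance of dying cells, by 0.59. Except for Per1, Mt1 and Cebpb, the genes in this paragraph were picked after their values were seen. Pck1 and Igfbp1, targets best known in liver, were not well above background on either array.

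Genes that glucocorticoids are known to hold back were mostly lower in the A-CEBP sample. Of 34 listed, 19 were measured on both arrays, and 10 of these (52.6%) were at least 2-fold lower and none higher by that size, beside 1.70% and 1.26% of all genes. The median was -1.07, with 16 below 0 and 3 above. The inducible nitric oxide synthase gene Nos2 read 1026 units in A-CEBP and 17214 in GFP, 17.5-fold lower. The cytokine gene Il6 read 238 units in A-CEBP and 3950 in GFP, 17.3-fold lower. Cxcl1, Ccl7, Ccl2, Cxcl10, Mmp3 and Ccl5 were 83.7-fold, 56.6-fold, 53.1-fold, 38.5-fold, 14.9-fold and 4.15-fold lower, and the last 2 of the 10, the alarmin gene Il33 and the collagenase gene Mmp13, 2.49-fold and 2.11-fold lower. Mmp13 was under 2-fold with spike-in scaling (-0.88). Cxcl5 and Cxcl2, seen in GFP only, were at least 185-fold and at least 3.46-fold lower.

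Of the 19 genes of that list measured on both arrays, 7 were within 1.5-fold, beside 91.5% of all genes. The macrophage growth factor gene Csf1 differed by -0.77. The adhesion molecule gene Vcam1 differed by -0.67 by its brighter probe and by -1.08, past 2-fold, by its other probe. Ptgs2, the inducible cyclooxygenase gene and a classic target of receptor repression, differed by -0.22. The AP-1 subunit gene Jun differed by -0.17 and Fos by 0.58. The pituitary hormone precursor gene Pomc differed by 0.01. These genes were picked after their values were seen. This list overlaps the inflammatory genes already known to be lower on these arrays, and is no separate evidence about glucocorticoid action.

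**Figure D5:**
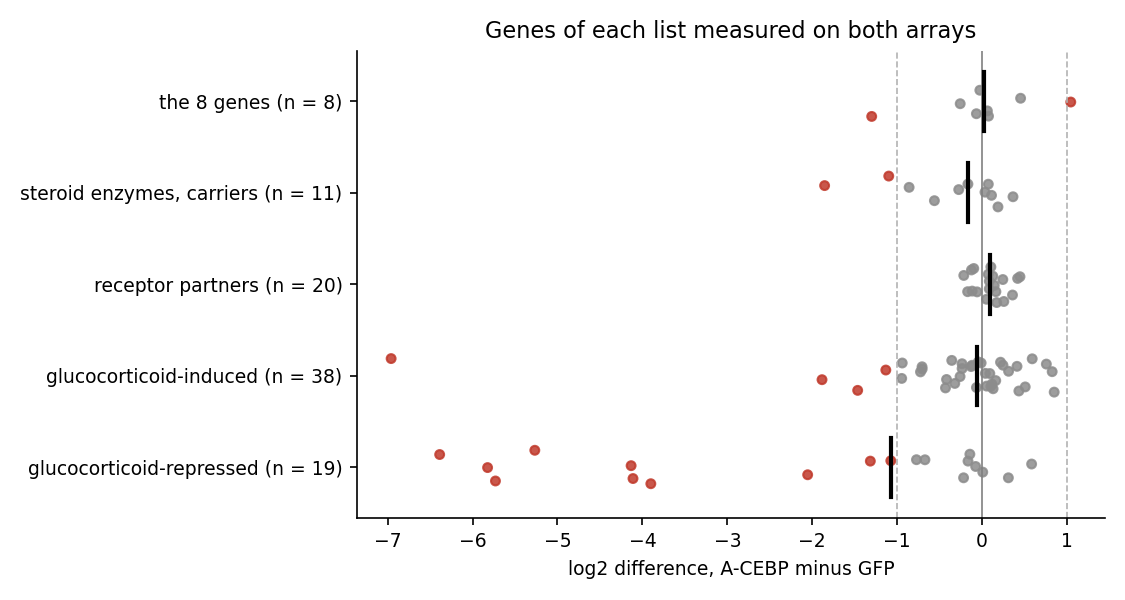
Log2 difference, A-CEBP minus GFP, of every gene measured on both arrays in each list. Red points are at least 2-fold apart, dashed lines mark 2-fold, black bars are medians and the vertical jitter has no meaning. The receptor partners lie between -0.22 and 0.45, while red points of the glucocorticoid-repressed list reach -6.39 and its median lies at -1.07.

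The labelled cell type was checked against its markers. Of 18 chondrocyte markers, 17 were detected in each sample. In A-CEBP, 5 were higher by 2-fold or more while no marker was 2-fold lower, beside 1.26% higher and 1.70% lower among all genes. The median was 0.63, and 1 of the 5, Cnmd, was under 2-fold with normexp background (0.86). The brightest probes of all 18 summed to 600257 units in A-CEBP and 399225 in GFP. Most of that sum was Col2a1, with 364462 units in A-CEBP and 260748 in GFP (difference 0.43). Matn3 was not well above background on either array. Hsd11b1 is also known from fat cells and leukocytes. Of 11 adipocyte markers with a probe, 7 were well above background in A-CEBP and 5 in GFP. The 2 seen in A-CEBP only, Adipoq and Plin1, had bounds of 0.99-fold and 1.33-fold. Over the array, 674 genes were seen in A-CEBP only and 171 in GFP only. The brightest probes of all 11 summed to 9233 units in A-CEBP and 10218 in GFP. Among the 5 detected in each sample, 1 was lower by 2-fold or more, beside 1.70% of all genes. That one, Fabp4, was 3.77-fold lower, whereas Pparg differed by 0.31, and Lep, Cidec, Cd36 and Slc2a4 were not well above background on either array. Of 11 leukocyte markers with a probe, 6 were well above background on each array, with a median of -0.25, 4 below 0 and 2 above. The brightest probes of all 11 summed to 26376 units in A-CEBP and 22724 in GFP. Most of that came from Itgam, with 22989 units in A-CEBP and 18864 in GFP. Itgam differed by 0.23 by that probe and by -0.57 by its other probe measured on both arrays. Cd14 was 1.79-fold and Lyz2 1.77-fold lower, and Ptprc, Adgre1, Tyrobp and Cd52 were among those not well above background on either. Endothelial and muscle markers were well above background for 3 of 7 genes in each list on each array. All 7 osteoblast markers with a probe were well above background on both arrays, with a median of 0.37 and 1 of them at least 2-fold higher, beside 1.26% of all genes. Their part in the difference of Hsd11b1 was not tested.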

How the data were processed

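For each of the 2 ATDC5 samples, Cy3-labelled material from 0.1 µg total RNA went onto a single-colour Agilent array, per the labels. The authors deposited linear spot intensity values from the scanner, with background subtraction and spatial detrending per the file headers, made with Feature Extraction 10.10.1.1 per the submitters' processing notes. They are not scaled between arrays. The deposited value table was that intensity times 1 constant per array, 1.15 for A-CEBP and 1.24 for GFP, and the sources used here do not give the basis of the constants. Its column medians were 67.4 for A-CEBP and 70.9 for GFP. The files use mouse build mm9, from which no coordinate is printed.

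For each spot, log2 of the processed intensity minus the array's 75th percentile was taken. Control spots and 293 spots marked as outliers were left out, and repeat spots were averaged. The scanner's mark for well above background had to be set on over 50% of a probe's spots. The brightest probe well above background on both arrays stood for a gene. For a gene seen on 1 array only, the bound set the bright level against the higher of the dim reading and the lowest level well above background on that array (-5.19 for A-CEBP, -4.73 for GFP). No spot was saturated. By transcript accession, 27229 of 55671 probes (48.9%) were each named for a single gene from RefSeq (GRCm38.p6), and the rest stayed unnamed. With 1 array per group the size rule was 2-fold and nothing was tested between groups. The rule for named genes took all 8 genes with every probe and Hsd11b2, H6pd, Nr3c2, Per1, Mt1, Mt2, Cebpa, Cebpb and Cebpd whatever their value. It took the list members at least 2-fold apart (up to 8 in each direction from the induced and repressed lists), the largest differences of lists with few or none, and the 3 genes nearest in difference to the member that differed most. Some list members that the rule takes are not reported here. Genes of the lists named outside it were picked after their values were seen. The members and lists were chosen with earlier results of these data known. The steps were tested on simulated data. Alternatives covered background, scaling, the value table, detection, probe choice, outlier spots and the threshold. Python 3.11.15, pandas 2.3.3, R 4.3.3 and limma 3.58.1 were used.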

Additional observations from a re-analysis of the deposited data

How the results depend on the processing

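Hsd11b1 stayed at least 2-fold lower in A-CEBP under all 10 alternatives, with a difference from -1.30 to -1.11 over the 9 that keep the 2-fold threshold. Not all of these could change the call. The 1.5-fold threshold is looser, and the value table is the same intensity times a constant. For genes with 1 probe well above background, such as Hsd11b1, Tsc22d3 and Sgk1, the alternatives for detection and probe choice return the same difference. Zbtb16 was under 2-fold with normexp background, which left 0 of the 8 genes at least 2-fold higher. The normexp fit used the spot medians, as the files used here hold no spot means. Spike-in scaling moved the median of the 8 differences to 0.21, put 322 genes at least 2-fold higher over the array, and put 2 induced genes, Cdkn1a (1.04) and Cdkn1c (1.02), past 2-fold. Normexp background gave 97 genes higher. Without the detection filter 603 genes were higher, 883 were lower and 1 induced gene, Pck1, was higher. With a 1.5-fold threshold 652 genes (4.70%) were higher and 527 (3.80%) lower. Of the 38 measured induced genes, 4 were then higher and 9 lower. The cause of these shifts was not tested, apart from the threshold and the added dim genes, which change the counts by construction. No paired analysis was possible because each group has 1 sample. No replicate could be left out for the same reason. Signal over background limits faint readings such as those of Zbtb16, Akr1c18, Serpina6, Dusp2, Nr3c2 and Klf11. Of the other list genes past 2-fold, Akr1c18, Mmp13 and Mt2 were under it with spike-in scaling, and Akr1c18 and Cnmd with normexp background.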
